A study of Homo sapiens with 6 samples.

Results

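The clustered histone genes were examined in 3 human myeloma cell lines. Their members were taken as every probe set whose platform symbol began with HIST1H, HIST2H, HIST3H or HIST4H or carried the matching current symbol, and 71 of the 54613 probe sets that are not controls met this rule. They name 64 of the 21359 genes that the arrays name, of which 56 belong to the HIST1 group on chromosome 6, 5 to HIST2 and 2 to HIST3 on chromosome 1, and 1 to HIST4 on chromosome 12. By protein class there were 7 probe sets for the linker histone H1, 16 for H2A, 19 for H2B, 11 for H3 and 16 for H4, and 2 probe sets were shared by H3 and H2A genes. The coding sequences of these genes are so alike that many probe sets cannot separate them. Of the 71 probe sets, 51 carry 1 gene symbol and 20 carry several, and with those whose names end in x_at, s_at or a_at, which can bind related transcripts, 33 are shared in one of these ways and 38 are not.

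Histones are the small basic proteins around which DNA is wound: H2A, H2B, H3 and H4 form the core of the nucleosome, and H1 binds the linker DNA between cores. The clustered genes are transcribed mainly while DNA is copied, and most of their messages end in a stem-loop that the protein SLBP binds, in place of a poly(A) tail. Several members, H1-2, H2AC6, H2BC5, H2BC12 and H2BC21 among them, are known also to give polyadenylated messages in some cells. Arrays of this kind are usually labelled from a primer that pairs with poly(A) tails, which stem-loop messages lack, and the primer used is not given in the sources used here.

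The series holds 6 arrays of the Affymetrix U133 Plus 2.0 design. OPM2, ARP1 and OCI-MY5 are established lines of multiple myeloma, the cancer of antibody-secreting plasma cells, and each gave 1 array of CD24+ cells and 1 array of CD24− cells. All cells were cultured in RPMI-1640 with serum and sorted on an antibody to CD24, a surface glycoprotein, and no label says that any array came from a repeated culture. Lines were therefore compared with their CD24+ and CD24− arrays standing as 2 samples per line, and p-values measure the spread between these arrays.

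The CD24+ array of OPM2 stands apart from the other 5. Its median intensity was 135, against 68.9 to 84.0 on the other arrays, and the geometric mean of its spike-in controls was 37362, against 6175 to 7399. The ratio of 3′ to 5′ signal of ACTB, a measure of RNA integrity, was 27.1 and 7.54 in CD24+ and CD24− cells of OPM2, 2.63 and 2.47 in those of ARP1, and 9.36 and 23.2 in those of OCI-MY5. All 8 plasma cell and myeloma markers lay above the highest TrpnX probe set, a control for a bacterial gene absent from human cells, on every array. Their summed intensity was 109216 and 115405 in OPM2, 69698 and 68865 in ARP1, and 48967 and 54500 in OCI-MY5, given as CD24+ and then CD24− cells. For 10 measured markers of other cell types, the sums in the same order were 3674 and 2579 in OPM2, 655 and 961 in ARP1, and 703 and 799 in OCI-MY5. The haemoglobin gene HBB made up 2298 and 1792 of the OPM2 sums. The part of array, RNA integrity and other cells in the line differences was not tested.

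The promoters of the genes on which the line differences turn are shown first, as the 250 bases before the RefSeq start site of GRCh38.p14. Capitals mark, on either strand, the octamer ATTTGCAT, which the factor POU2F1 binds, the CCAAT box, the TATA box TATAAA, and AAACACA, a motif known from H1 promoters. H2AC18 lies at chr1:149842751-149843000 on the minus strand, H1-2 at chr6:26056471-26056720 on the minus strand, H2BC21 at chr1:149886683-149886932 on the minus strand and H2BC4 at chr6:26123927-26124176 on the minus strand.
H2AC18: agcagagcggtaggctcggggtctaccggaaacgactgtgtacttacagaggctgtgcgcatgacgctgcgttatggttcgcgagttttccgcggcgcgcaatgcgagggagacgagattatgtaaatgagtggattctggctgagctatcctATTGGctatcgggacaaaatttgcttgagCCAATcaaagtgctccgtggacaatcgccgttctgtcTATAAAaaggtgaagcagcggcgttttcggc
H1-2: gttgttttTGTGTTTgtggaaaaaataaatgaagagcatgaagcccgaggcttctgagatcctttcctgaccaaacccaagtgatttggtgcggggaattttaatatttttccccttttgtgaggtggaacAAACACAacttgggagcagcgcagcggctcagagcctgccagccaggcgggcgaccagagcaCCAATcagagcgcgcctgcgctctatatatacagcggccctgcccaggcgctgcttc
H2BC21: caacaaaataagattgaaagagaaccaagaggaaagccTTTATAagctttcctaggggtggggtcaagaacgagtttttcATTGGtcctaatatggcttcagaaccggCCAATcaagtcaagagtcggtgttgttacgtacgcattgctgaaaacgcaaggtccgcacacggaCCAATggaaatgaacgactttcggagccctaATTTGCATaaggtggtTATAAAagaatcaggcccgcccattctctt
H2BC4: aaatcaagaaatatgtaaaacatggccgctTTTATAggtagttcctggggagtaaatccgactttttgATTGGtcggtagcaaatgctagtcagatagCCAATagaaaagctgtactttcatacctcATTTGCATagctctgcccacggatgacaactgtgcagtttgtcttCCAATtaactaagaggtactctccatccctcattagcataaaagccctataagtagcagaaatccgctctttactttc

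The window of H2AC19, at chr1:149850811-149851060 on the plus strand, has the same letters as that of H2AC18 over 249 of 249 overlapping bases. H2BC4 and H2AC6 are transcribed away from each other, with 245 bases between their start sites. Their windows overlap, so the octamer they share is counted under both H2A and H2B. Some genes, H2BC12 among them, have more than 1 window, and every window was counted. Promoters were found for 57 of the 64 genes, in 61 windows, and each motif was searched on both strands and counted on its own, whether or not it overlapped another. The octamer was present in 14 of 18 H2B windows and 8 of 13 H2A windows, against 1 of 11 H3 windows, none of 6 H1 windows and none of 13 H4 windows. Of all 35116 promoter windows, 1.63% held it. AAACACA was found in all 6 H1 windows and in no window of the other classes, against 4.82% of all promoters. CCAAT was present in 51 of the 61 histone windows and TATAAA in 40, against 32% and 10.7% of all promoters. The octamer in both printed H2B promoters and its absence from the printed H2AC18 and H1-2 windows describe these letters alone.

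Levels are given as MAS5 intensities, which the authors scaled to the same trimmed mean on every array, and are compared only within a probe set. The highest of 3 TrpnX values was 96.4 and 61.3 in CD24+ and CD24− cells of OPM2, 10.3 and 64.5 in those of ARP1, and 39.3 and 45.5 in those of OCI-MY5. This limit thus differed between arrays and was highest on the CD24+ array of OPM2. Of the 71 histone probe sets, 35 were above the highest TrpnX value on all 6 arrays, 30 on some arrays and 6 on none. Among the 19 H2B probe sets 13 were above it on every array, among the 16 H2A probe sets 9, among the 16 H4 probe sets 8, among the 7 H1 probe sets 2 and among the 11 H3 probe sets 1. The median of the 71 on the scale log2(intensity + 16) was 7.85 and 7.42 in CD24+ and CD24− cells of OPM2, 7.21 and 7.12 in those of ARP1, and 6.69 and 6.63 in those of OCI-MY5.

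**Figure D1:**
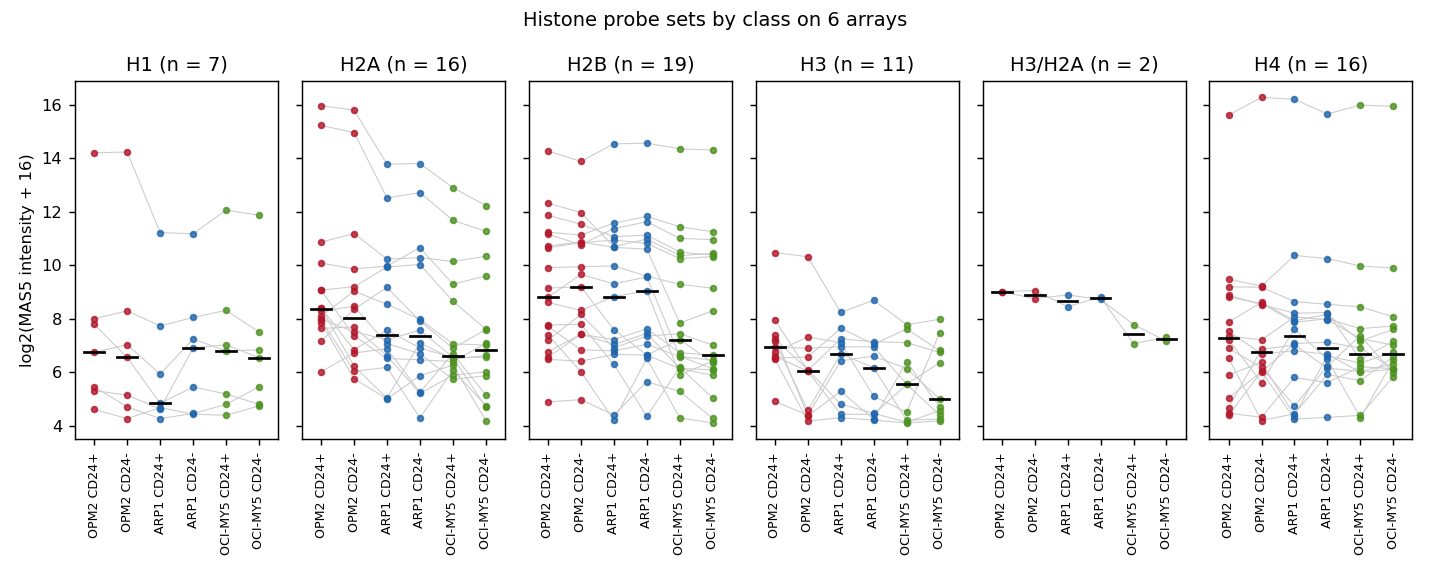
Level of each histone probe set on the scale log2(intensity + 16), by histone class and array; each point is 1 probe set. The median over all 71 was 7.85 and 7.42 on the arrays of OPM2, 7.21 and 7.12 on those of ARP1, and 6.69 and 6.63 on those of OCI-MY5.

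With all probe sets tested, the calls between lines were all higher in OPM2. In OPM2 against OCI-MY5, 8 of the 71 probe sets were higher and none lower at an adjusted p under 0.05 (limma, Benjamini-Hochberg over all 54613 probe sets), which is 11.3% of the histone probe sets, while 1% of all probe sets were higher and 2.18% were called in either direction. In OPM2 against ARP1, 2 of 71 were higher and none lower, or 2.82%, with 0.861% of all probe sets called higher and 2.35% in either direction. ARP1 and OCI-MY5 differed in none of the 71, with 0.00183% of all probe sets called. At an unadjusted p under 0.05, 15 of 71 were called between ARP1 and OCI-MY5, or 21.1%, against 9.91% of all probe sets. A moderated F test over the 3 lines called 5 of 71, or 7.04%, against 1.81%. In bulk RNA, fewer cells with a message and less of it per cell cannot be told apart.

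These counts depend on how dim probe sets are handled. With probe sets under the median level left out, 48 histone probe sets were tested and 16 were called in OPM2 against OCI-MY5, all higher. In OPM2 against ARP1 8 were called, 7 higher and the H4C8 probe set lower, and in ARP1 against OCI-MY5 2 were called, both higher, while 15.3%, 15.5% and 0.348% of all the probe sets then tested were called. With the CD24 fraction as a second term in the fit, no histone probe set passed the threshold in any comparison of lines. The same held without the CD24+ array of OPM2, without either ARP1 array and without either OCI-MY5 array. Without the CD24+ array of OPM2 the 8 differences from OCI-MY5 ran from 2.16 to 3.49 on the log2 scale, with limma adjusted p from 0.0595 to 0.110, and without an ARP1 or OCI-MY5 array the limma adjusted p were 0.0796 to 0.289. With all arrays the 8 differences ran from 2.26 to 3.62.

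Over all 71 probe sets the median log2 difference was 0.93 in OPM2 against OCI-MY5, 0.30 in OPM2 against ARP1 and 0.37 in ARP1 against OCI-MY5, beside 0.19, 0.13 and 0.06 over all probe sets. With each array centred on its median, the histone medians were 0.53, 0.04 and 0.25 beside −0.20, −0.14 and −0.07 over all probe sets. Both OCI-MY5 arrays were the lowest of the 6 for 28 histone probe sets, or 39.4%, against 12.3% of all probe sets. These comprised 8 of the 16 H2A, 10 of the 19 H2B, 3 of the 11 H3, 5 of the 16 H4 and both shared H3 and H2A probe sets, but 0 of the 7 H1 probe sets. Both OPM2 arrays were the highest for 20, or 28.2%, against 16.8%, and these included all 4 probe sets of HIST2 alone. The 4 are those of H2AC18 and H2AC19, which share their probe sets, and that of H2BC21, where OPM2 exceeded ARP1 by only 0.16. Of the 5 H4 probe sets that HIST2 genes share with HIST1 and HIST4, 1 was highest on both OPM2 arrays.

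**Figure D2:**
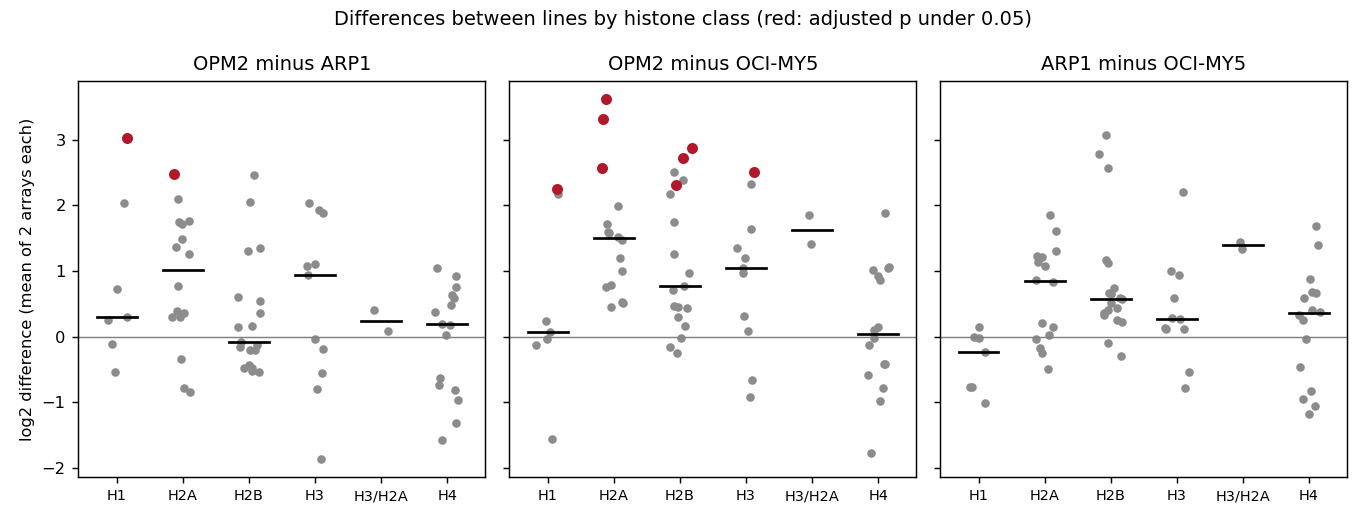
Log2 difference between lines for each histone probe set, by class, on the scale log2(intensity + 16); each point is 1 probe set. In OPM2 against OCI-MY5 all 16 H2A probe sets lie above 0, with a median of 1.5, while the 16 H4 probe sets lie on both sides of it, with a median of 0.04.

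Of the linker histones, H1-2 was called in OPM2 against each of the other lines. The gene, also named HIST1H1C, is one of the H1 subtypes most widely made in human cells. It read 18898 and 19308 in CD24+ and CD24− cells of OPM2. It read 2374 and 2297 in those of ARP1, and 4259 and 3732 in those of OCI-MY5. Both OPM2 arrays lay far above the other 4, and the 2 fractions of each line were close together. The difference was 3.02 ± 0.28 on the log2 scale (SE, n = 2 arrays per line; limma adjusted p = 0.0178) against ARP1, or 8.13-fold, and 2.26 ± 0.28 (limma adjusted p = 0.0322) against OCI-MY5, or 4.78-fold. ARP1 lay below OCI-MY5 by a difference of −0.77 that did not pass the threshold (limma adjusted p = 0.475). Without the CD24+ array of OPM2 the difference from ARP1 was 3.04, with a limma adjusted p of 0.0547.

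No other H1 probe set passed a test between lines. H1-3, a further somatic subtype, read 240 and 297 in OPM2, 196 and 248 in ARP1, and 302 and 166 in OCI-MY5, CD24+ first in each pair, and the 3 lines overlapped. The probe sets of H1-1 and H1-5, subtypes tied to dividing cells, were above the highest TrpnX value on none of the 6 arrays. The median difference of the 7 H1 probe sets was 0.30 in OPM2 against ARP1, 0.07 in OPM2 against OCI-MY5 and −0.23 in ARP1 against OCI-MY5.

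The H2A probe sets ran one way between OPM2 and OCI-MY5. All 16 H2A probe sets had a higher mean in OPM2 than in OCI-MY5, with a median log2 difference of 1.5, against 32207 of all 54613 probe sets with a higher mean and a median of 0.19. In OPM2 against ARP1, 13 of 16 were higher, with a median of 1.01, and in ARP1 against OCI-MY5, 12 of 16, with a median of 0.85.

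The largest H2A differences of OPM2 from either line were on the probe sets of H2AC18 and H2AC19. These are a duplicated pair of HIST2 genes, also named HIST2H2AA3 and HIST2H2AA4, that the arrays cannot separate. Their x_at probe set read 38493 and 32020 in CD24+ and CD24− cells of OPM2, 5860 and 6732 in those of ARP1, and 3263 and 2458 in those of OCI-MY5. The 3 lines did not overlap and kept the order OPM2, ARP1, OCI-MY5. Its log2 difference was 3.62 ± 0.32 against OCI-MY5 (SE; limma adjusted p = 0.0157), or 12.3-fold, and 2.48 ± 0.32 against ARP1 (limma adjusted p = 0.0348), or 5.58-fold. ARP1 against OCI-MY5 gave 1.14, which did not pass (limma adjusted p = 0.367).

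An s_at probe set for the same pair read 64135 and 57329 in OPM2, 14059 and 14292 in ARP1, and 7636 and 4803 in OCI-MY5, CD24+ first. It kept the same order without overlap, with a log2 difference of 3.32 from OCI-MY5 (limma adjusted p = 0.0225), or 9.99-fold, and of 2.10 from ARP1 (limma adjusted p = 0.0587). The remaining s_at probe set of the pair read 518 and 148 in OPM2, 75.2 and 72.1 in ARP1, and 68.2 and 119 in OCI-MY5. Its differences of 1.72 and 1.47 from ARP1 and OCI-MY5 had the same direction but did not pass (limma adjusted p = 0.231 and 0.298), and its 2 OPM2 arrays were themselves 1.70 apart on the log2 scale.

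H2AC8 (HIST1H2AE), an H2A gene of HIST1 with a probe set of its own, read 297 and 335 in CD24+ and CD24− cells of OPM2, 118 and 87.1 in those of ARP1, and 37.0 and 42.3 in those of OCI-MY5. The lines again did not overlap. The difference from OCI-MY5 passed the threshold (limma adjusted p = 0.0290), but the OCI-MY5 signal was below the highest TrpnX value of each array, 39.3 and 45.5, and so is only a bound. Against those TrpnX values OPM2 was at least 5.69-fold higher on the scale log2(intensity + 16). The difference from ARP1 was 1.5 (limma adjusted p = 0.0882). H2AC6 (HIST1H2AC), known for polyadenylated as well as stem-loop messages and measured by an s_at probe set that can bind related transcripts, read 1849 and 2316 in OPM2, 1186 and 1232 in ARP1, and 1113 and 1277 in OCI-MY5. Its OPM2 arrays were the highest 2, by 0.77 and 0.79 on the log2 scale over ARP1 and OCI-MY5, short of the threshold (limma adjusted p = 0.253 and 0.251).

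**Figure D3:**
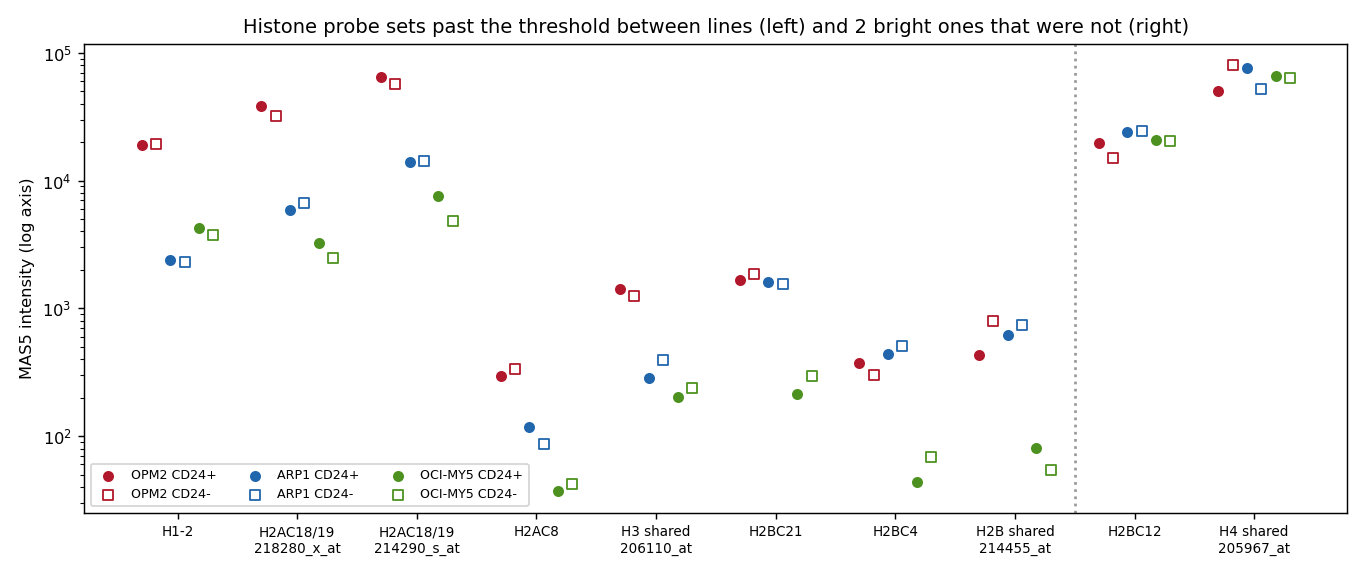
Intensity on a log axis of the histone probe sets past the threshold between lines, and of 2 bright ones that did not pass it, on each of the 6 arrays. H1-2 and the H2AC18 and H2AC19 probe sets are highest on both OPM2 arrays, while H2BC21 and H2BC4 are lowest on both OCI-MY5 arrays.

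For the H2B members called, OCI-MY5 was low, and OPM2 differed from ARP1 by 0.16, −0.47 and −0.20 on the log2 scale. H2BC21 (HIST2H2BE), a HIST2 gene known to give polyadenylated messages, is measured by an s_at probe set that can bind related transcripts, so its signal may not be its own alone. It read 1671 and 1858 in CD24+ and CD24− cells of OPM2, 1609 and 1542 in those of ARP1, and 213 and 298 in those of OCI-MY5. Both OCI-MY5 arrays lay well under the other 4, and OPM2 and ARP1 were close. OPM2 against OCI-MY5 gave 2.73 ± 0.32 on the log2 scale (SE; limma adjusted p = 0.0273), or 6.64-fold. ARP1 against OCI-MY5 gave 2.57, or 5.94-fold, with a limma adjusted p of 0.249 over all probe sets and of 0.0463 once probe sets under the median level were left out. OPM2 against ARP1 gave 0.16, with a 95% interval of −0.64 to 0.97.

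H2BC4 (HIST1H2BC), which has a probe set of its own and was added to the named genes after its values were seen as the remaining one of the 8 calls, read 374 and 301 in OPM2, 438 and 509 in ARP1, and 43.7 and 68.9 in OCI-MY5. OPM2 against OCI-MY5 gave 2.31 ± 0.34 (SE; limma adjusted p = 0.0469), or 4.94-fold, and ARP1 against OCI-MY5 gave 2.78, or 6.86-fold, with a limma adjusted p of 0.249 and again of 0.0463 without dim probe sets. A probe set shared by H2BC4, H2BC6, H2BC7, H2BC8 and H2BC10, read 431 and 792 in OPM2, 615 and 741 in ARP1, and 80.2 and 54.2 in OCI-MY5. It was 7.32-fold higher in OPM2 than in OCI-MY5 (limma adjusted p = 0.0455) and 8.41-fold higher in ARP1 than in OCI-MY5, where the limma adjusted p was 0.258. On each of these probe sets the OCI-MY5 arrays were the lowest 2 of 6 and did not overlap the others. For H2BC4 and the shared probe set, the OCI-MY5 values lay not far above the highest TrpnX values of those arrays, 39.3 and 45.5. Their fold differences therefore depend on the background and on the 16 added before the log.

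Both x_at probe sets of the same 5 genes gave smaller differences. One had a log2 difference of −0.02 in OPM2 against OCI-MY5 and of 0.52 in ARP1 against OCI-MY5, and the other gave 0.72 and 0.57. None of these passed the threshold. Probe sets for one set of gene names thus disagreed in size, and which transcripts each one read was not tested.

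H2BC12 (HIST1H2BK) and H2BC6 (HIST1H2BE), which were named as the brightest H2B probe sets, did not pass a test in any pair of lines. H2BC12 read 19804 and 15125 in CD24+ and CD24− cells of OPM2, 23856 and 24278 in those of ARP1, and 20939 and 20361 in those of OCI-MY5. The difference of OPM2 from OCI-MY5 was −0.25, with a 95% interval of −1.03 to 0.52, and that of OPM2 from ARP1 was −0.48, with an interval of −1.25 to 0.30. H2BC6, on a probe set that can bind related genes, read 2393 and 2227 in OPM2, 3036 and 3619 in ARP1, and 2762 and 2429 in OCI-MY5. The RefSeq record of H2BC5, a gene with polyadenylated messages, also lists names of other HIST1 H2B genes. H2BC5 has 2 x_at probe sets, which can bind related transcripts. One read 5115 and 3999 in OPM2, 1645 and 2001 in ARP1, and 1304 and 1373 in OCI-MY5. It was 3.35-fold higher in OPM2 than in OCI-MY5 and the other probe set 2.41-fold, with limma adjusted p of 0.0682 and 0.113, and of 0.0127 and 0.0236 without dim probe sets. Against ARP1 they were 2.48-fold and 1.52-fold higher in OPM2, with limma adjusted p of 0.113 and 0.350. The first of these passed without dim probe sets (limma adjusted p = 0.0265). Over the 19 H2B probe sets the median difference was 0.76 in OPM2 against OCI-MY5, with 16 higher, 0.57 in ARP1 against OCI-MY5, with 17 higher, and −0.09 in OPM2 against ARP1, with 9 higher.

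For H3, a probe set shared by 10 HIST1 genes carried the call. It read 1407 and 1260 in CD24+ and CD24− cells of OPM2, 285 and 397 in those of ARP1, and 203 and 236 in those of OCI-MY5. Both OPM2 arrays lay above all others. The log2 difference of OPM2 was 2.52 ± 0.32 from OCI-MY5 (SE; limma adjusted p = 0.0337), or 5.73-fold, and 1.93 from ARP1 (limma adjusted p = 0.0581). The other probe set of the same 10 genes read 127 and 7.67 in OPM2, 86.7 and 55.7 in ARP1, and 2.37 and 2.94 in OCI-MY5. It was above the highest TrpnX value on 2 arrays, and its OPM2 arrays spanned those of ARP1. On it OPM2 differed by −0.56 from ARP1 (limma adjusted p = 0.765) and by 1.64 from OCI-MY5 (limma adjusted p = 0.384).

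The probe sets for single H3 genes differed in direction, and none was above the highest TrpnX value on all 6 arrays. H3C7 (HIST1H3F) read 233 and 50.7 in OPM2, 136 and 125 in ARP1, and 122 and 90.7 in OCI-MY5, and OPM2 spanned the other lines. One probe set for H3C6 (HIST1H3E) read 14 and 4.91 in OPM2, 69.9 and 81.0 in ARP1, and 54.2 and 16 in OCI-MY5, with OPM2 lowest and no test passed. The other, above the highest TrpnX value on no array, had a higher mean in OPM2, by 1.08 and 1.19 on the log2 scale over ARP1 and OCI-MY5. H3C1 was highest on both OPM2 arrays, by 2.04 and 2.33 (limma adjusted p = 0.113 and 0.0903). So was H3C11, by 1.89 and 1.35 (limma adjusted p = 0.128 and 0.229). H3C1 was above the highest TrpnX value on 2 arrays and H3C11 on 0. The median over the 11 H3 probe sets was 1.05 in OPM2 against OCI-MY5 and 0.93 in OPM2 against ARP1, but without the CD24+ array of OPM2 or another single array these ranged from 0.34 to 1.62 and from −0.08 to 1.13.

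Both probe sets shared by H3 and H2A genes were lowest in OCI-MY5. The one shared by 10 H3 genes and H2AC7 read 502 and 515 in CD24+ and CD24− cells of OPM2, 335 and 430 in those of ARP1, and 118 and 142 in those of OCI-MY5. The one shared by H3C4 and H2AC7 read 502 and 415 in OPM2, 458 and 406 in ARP1, and 204 and 126 in OCI-MY5. OPM2 exceeded OCI-MY5 by 1.85 and 1.41 on the log2 scale, with limma adjusted p of 0.0585 and 0.125.

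No H4 probe set passed the threshold with all probe sets tested, and 3 did once probe sets under the median level were left out. One of the 5 probe sets shared by 14 H4 genes of HIST1, HIST2 and HIST4 read 50275 and 79836 in CD24+ and CD24− cells of OPM2, 75650 and 51877 in those of ARP1, and 65371 and 63061 in those of OCI-MY5. The lines overlapped, and the 2 fractions of OPM2 and of ARP1 were further apart than the line means. Its difference was −0.02 in OPM2 against OCI-MY5, with a 95% interval of −1.0 to 0.96, and 0.02 in OPM2 against ARP1, with an interval of −0.97 to 1.0. These intervals leave room for a difference of about 2-fold in either direction. Another of the 5, an x_at probe set, read 454 and 354 in OPM2, 279 and 284 in ARP1, and 72.9 and 126 in OCI-MY5. OPM2 exceeded OCI-MY5 on it by 1.89 on the log2 scale, or 3.71-fold, with a limma adjusted p of 0.0781, and of 0.0190 without dim probe sets. H4C11, on an x_at probe set, was 2.02-fold higher in OPM2 than in OCI-MY5, with a limma adjusted p of 0.160, and of 0.0375 without dim probe sets.

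H4C8 (HIST1H4H) had 2 probe sets with opposite directions. Its own probe set read 696 and 580 in OPM2, 1306 and 1201 in ARP1, and 989 and 936 in OCI-MY5, with OPM2 lowest, whereas an s_at probe set read 568 and 563 in OPM2, 383 and 356 in ARP1, and 332 and 252 in OCI-MY5, with OPM2 highest. The log2 differences of OPM2 from ARP1 were −0.96 (limma adjusted p = 0.170) and 0.60 (limma adjusted p = 0.360). The lower value of its own probe set passed the threshold without dim probe sets (limma adjusted p = 0.0425) and with an intensity trend (limma adjusted p = 0.0122), and the s_at probe set, which can bind related transcripts, passed in neither. Over the 16 H4 probe sets 8 were higher and 8 lower in OPM2 than in OCI-MY5.

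ARP1 was compared with OCI-MY5 through the order of its arrays as well. Both ARP1 arrays exceeded both OCI-MY5 arrays for 40 of the 71 histone probe sets, or 56.3%, against 27% of all probe sets, and lay under both for 4, or 5.63%, against 21.1%. The 40 comprised 14 of 19 H2B, 9 of 16 H2A, 9 of 16 H4, 6 of 11 H3 and both shared H3 and H2A probe sets, and 0 of 7 H1. The count was 36 with quantile normalization, where 23.2% of all probe sets were ordered this way, and 35 with median centring, where 20.6% were. OPM2 exceeded OCI-MY5 in this way for 38 of 71, or 53.5%, against 28.8%, and lay under it for 8, or 11.3%, against 20.2%. OPM2 exceeded ARP1 for 22, or 31%, against 26.4%, and lay under it for 13, or 18.3%, against 22.4%. Many probe sets share genes, so the 71 are not independent of one another, although probe sets of the same genes did not always have the same order.

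The CD24+ fractions were then set against the CD24− fractions, the comparison the series was designed for. No histone probe set differed at an adjusted p under 0.05 (limma), nor did any of the 54613 probe sets, so 0% were called. At an unadjusted p under 0.05, 2 of 71 were called, or 2.82%, against 3.42% of all probe sets, and with the cell line as a block 3 of 71, or 4.23%, against 5.39%. The lowest limma adjusted p of a histone probe set was 0.874 with the block. The median difference of the 71 was 0.07 on the log2 scale, beside 0.09 over all probe sets, and it was −0.26 beside −0.24 after median centring.

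**Figure D4:**
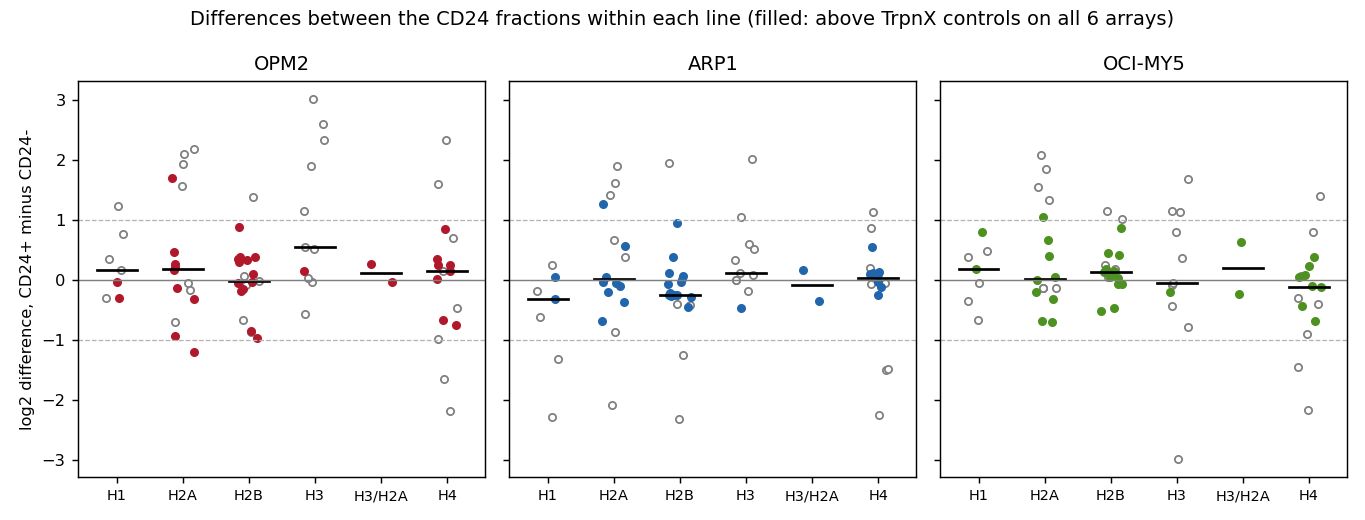
Log2 difference of CD24+ minus CD24− cells for each histone probe set, by class and cell line, on the scale log2(intensity + 16); each point is 1 probe set and each line has 1 array per fraction. The points scatter on both sides of 0 in all 3 lines, with 42 of 71 above 0 in OPM2.

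The direction was the same in all 3 lines for 17 histone probe sets, or 23.9%, against 27.6% of all probe sets, with 11 higher in CD24+ cells, or 15.5%, against 17.6%, and 6 lower, or 8.45%, against 9.99%. Among those at or above the median level, H2AC4 (HIST1H2AB) read 323 in CD24+ and 98.6 in CD24− cells of OPM2, 174 and 103 in ARP1, and 77.8 and 9.90 in OCI-MY5. Its mean log2 difference was 1.36 ± 0.62 (SD, n = 3 lines), with a limma adjusted p of 0.874 with the block. Its CD24− value in OCI-MY5 lay under the highest TrpnX value of that array. Both probe sets called at an unadjusted p under 0.05 without the block lay under the median level. One for H2AC15 differed by 1.94, 1.89 and 1.34 on the log2 scale in OPM2, ARP1 and OCI-MY5. That for H3C3 differed by 3.01, 1.04 and 1.69. Each was above the highest TrpnX value on 3 arrays and had a limma adjusted p of 0.874 with the block. Another H2AC15 probe set gave 0.47, −0.36 and 0.005.

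The other probe sets at or above the median level that were higher in all 3 lines moved less. H4C9 (HIST1H4I) read 147 in CD24+ and 132 in CD24− cells of OPM2, 252 and 234 in ARP1, and 136 and 113 in OCI-MY5, a mean difference of 0.16 ± 0.07 (SD, n = 3), and it was −0.13 with quantile normalization and −0.17 with median centring. H4C8 on its own probe set differed by 0.15 ± 0.09, and by −0.18 with median centring. H3C7 differed by 0.79 ± 0.97, of which 1.90 was the difference in OPM2, and the probe set shared by H3C4 and H2AC7 by 0.35 ± 0.24.

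Lower in CD24+ cells of all 3 lines were 4 probe sets at or above the median level. H1-4, a somatic linker histone, read 90.6 in CD24+ and 115 in CD24− cells of OPM2, 44.7 and 135 in ARP1, and 95.0 and 98.3 in OCI-MY5, a mean difference of −0.55 ± 0.68 (SD, n = 3). A further H4 probe set shared by 14 genes read 218 and 375 in OPM2, 227 and 271 in ARP1, and 128 and 178 in OCI-MY5, a difference of −0.47 ± 0.25. H2AC6, on its s_at probe set, and the probe set shared by 10 H3 genes and H2AC7 differed by −0.19 ± 0.13 and −0.21 ± 0.16. None of these passed the adjusted threshold.

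Differences of at least 2-fold between the fractions of a line, each from 1 array per fraction and so without a test, were found for 17 histone probe sets of OPM2, 16 of ARP1 and 14 of OCI-MY5. These are 23.9%, 22.5% and 19.7% of the 71, against 36.9%, 21.2% and 21.4% of all probe sets. In OPM2 14 were higher and 3 lower in CD24+ cells, against 25.5% and 11.4% of all probe sets. In ARP1 8 were higher and 8 lower, against 11% and 10.2%, and in OCI-MY5 11 were higher and 3 lower, against 11.6% and 9.77%. Few came from the brighter probe sets. Among the 35 above the highest TrpnX value on all 6 arrays, 1 was at least 2-fold higher and 1 at least 2-fold lower in CD24+ cells of OPM2. In each of ARP1 and OCI-MY5 1 was higher. The share among all probe sets of such brightness is not given here, so these counts describe the 35 alone. Across the 71 probe sets the levels of the 2 fractions of a line had Pearson correlations of 0.932 for OPM2, 0.942 for ARP1 and 0.942 for OCI-MY5, which describe probe sets that share an array and differ widely in brightness.

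Genes that serve histone supply were examined beside the histones, each by its brightest probe set with 1 gene symbol. Of 21 listed genes for transcription and 3′ end processing of histone messages 20 were measured, and 1 was lower in OPM2 than in each other line, against 1.49% and 1.18% of all probe sets called lower. This was CPSF3, the endonuclease that cuts histone and other pre-mRNAs, which read 3567 and 3777 in CD24+ and CD24− cells of OPM2, 18167 and 19049 in those of ARP1, and 23696 and 24208 in those of OCI-MY5. It was lower in OPM2 by a log2 difference of −2.34 from ARP1 (limma adjusted p = 0.0299) and −2.70 from OCI-MY5 (limma adjusted p = 0.0218). The 2 lines with the higher CPSF3 signal, ARP1 and OCI-MY5, did not overlap OPM2.

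None of the 22 chaperone and import genes and none of the 21 measured DNA replication genes was called in a comparison of lines or fractions (limma). Of all probe sets, 2.35% were called in OPM2 against ARP1 and 2.18% in OPM2 against OCI-MY5. The shares were 0.00183% in ARP1 against OCI-MY5 and 0% between fractions. At such shares, the lack of a call among so few genes says little about them. Of 9 measured genes for replication-independent and other histone variants, 1 was lower in OPM2, namely H2AJ, a replication-independent H2A variant. H2AJ read 833 and 735 in OPM2, 5233 and 6572 in ARP1, and 4977 and 5639 in OCI-MY5, a log2 difference of −2.88 from ARP1 (limma adjusted p = 0.0230) and −2.73 from OCI-MY5 (limma adjusted p = 0.0247). H2AJ was read by an x_at probe set, which can bind related transcripts. The H2AJ signal was opposite in direction to the H2A probe sets of H2AC18, H2AC19 and H2AC8. SLBP, the stem-loop binding protein, read 11310 and 16725 in OPM2, 8278 and 8790 in ARP1, and 16931 and 17779 in OCI-MY5, and NPAT, the coactivator of histone gene transcription, read 1648 and 1601 in OPM2, 778 and 675 in ARP1, and 1042 and 913 in OCI-MY5. Neither passed a test. Of the 5 clustered genes known for polyadenylated messages, H1-2 was called in OPM2 against ARP1, and H1-2 and H2BC21 in OPM2 against OCI-MY5, while H2AC6, H2BC5 and H2BC12 were not. Of these, H2AC6, H2BC5 and H2BC21 were read by probe sets that can bind related transcripts.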

How the data were processed

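RNA of CD24+ and CD24− cells of OPM2, ARP1 and OCI-MY5 was measured on 1 array each. Each deposited value is a linear MAS5 intensity that the authors computed with Affymetrix Expression Console 1.1, per the submitters' processing notes. On every array the values averaged 500 once 2% were trimmed from each end. Scanner files and detection calls were not used here, so TrpnX controls served as a measure of dimness, and the number of arrays limits the precision.

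Of 54675 probe sets, 62 controls were left out. Names came from the platform annotation, with current symbols by Entrez ID from the RefSeq table of GRCh38.p14, where all 64 histone genes matched, as did promoter sequences. Values were transformed as log2(intensity + 16), which understates fold changes of dim probe sets, and tested without a filter by limma 3.58.1 in R 4.3.3 (lmFit, eBayes, two-sided, Benjamini-Hochberg over 54613 probe sets). Line contrasts used 2 arrays per line, with 3 residual and 2.16 prior degrees of freedom. The fraction test used 3 arrays per group. After subtraction of group means, the CD24+ and CD24− arrays correlated at 0.447 for OPM2, 0.345 for ARP1 and 0.324 for OCI-MY5, and at −0.304 to 0.0489 across lines, so the replicate numbers, which stand for the lines, pair the samples. The scripts were tested on simulated data.

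Named probe sets were the 2 brightest of each class, up to 6 per direction past the threshold for each pair of lines, up to 5 per direction with the same sign in all lines for the fractions, and up to 4 called genes of each other list. The histone members and the lists were chosen with earlier results of these data known. Alternatives were pseudocounts of 1 and 64, filters at the median (6.36) and the 75th percentile of mean level, quantile normalization, median centring, unshared probe sets alone, limma's intensity trend, the CD24 fraction as a second term, the line as a replicate block, and leaving out each array.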

Additional observations from a re-analysis of the deposited data

How the results depend on the processing

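Calls are given in the order OPM2 against ARP1, OPM2 against OCI-MY5, ARP1 against OCI-MY5 and the F test, and were 2, 8, 0 and 5. They were 1, 1, 0 and 0 with a pseudocount of 1 and 7, 13, 0 and 11 with 64. With the filter at the median they were 8, 16, 2 and 14. In the pairs of lines, 15.5%, 15.3% and 0.348% of all the probe sets then tested were called. The filter at the 75th percentile gave 8, 11, 5 and 12. An intensity trend gave 8, 16, 8 and 17, where 10.7%, 10.3% and 2.38% of all probe sets were called in the pairs of lines. For the other alternatives such shares are not given here, and their counts describe the histone probe sets alone. Median centring gave 1, 2, 0 and 1, unshared probe sets alone 1, 3, 0 and 2, and the CD24 fraction as a second term 0 in each. Leaving out 1 array gave 0 to 4, 0 to 10, 0 and 0: the first 2 counts fell to 0 without the OPM2 CD24+ array, either ARP1 array or either OCI-MY5 array, and were 4 and 10 without the OPM2 CD24− array. In these fits the lone array of a line was assumed to vary like the others. The 2 and 8 histone calls kept their direction in every alternative in which they were tested. The fraction test gave 0 calls in every setting, and the replicate block, which leaves differences as they are, changed no call.

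The histone median in OPM2 against OCI-MY5 was 0.62 with a pseudocount of 64, 0.66 with quantile normalization, 0.53 with centring, 0.45 for unshared probe sets, and 0.74 to 0.98 with 1 array left out. In OPM2 against ARP1 it was 0.036 with centring. Counts of at least 2-fold between fractions, in the order OPM2, ARP1, OCI-MY5, were 5, 5 and 3 with the filter at the median, 0, 0 and 1 at the 75th percentile, and 12, 6 and 2 with a pseudocount of 64. ARP1 had 10 among unshared probe sets. The shares of all probe sets at least 2-fold apart in these settings are not given here, so these counts describe the histone probe sets alone.

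Fraction differences of 5 probe sets, none called, changed sign. H4C9 was −0.13 with quantile normalization, −0.17 with centring, with or without the replicate block, and −0.093 to 0.45 with 1 array left out. H4C8 on its own probe set was −0.18 with centring, with or without the replicate block, and −0.13 to 0.38 with 1 array left out. The probe set shared by 10 H3 genes and H2AC7 ran from −0.75 to 0.35, H2AC6 from −0.42 to 0.10, and the probe set shared by H3C4 and H2AC7 from −0.17 to 0.74. The causes were not tested.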
